A study of Homo sapiens and Mus musculus with 18 samples.

Results

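A set of 10 transcription factor genes of the somites and the paraxial mesoderm was followed through stem-cell models of the embryo in human and mouse. Its members were fixed as a list of symbols and matched by symbol, not by a threshold on their values: MEOX1, MEOX2, TCF15, UNCX, PAX1, PAX9, FOXC1, FOXC2, TBX18 and MYF5 among the 44910 genes of the human count table, and the mouse genes of the same names among the 29720 genes of the mouse count table. Polyadenylated RNA was sequenced from gastruloids, which are aggregates of embryonic stem cells (ESCs) that elongate and form derivatives of the germ layers, and from the ESC states that precede them. All 20 genes were found in the tables, and each group held 2 replicate samples, so that every mean ± SD is over 2 samples.

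The human groups were H9 ESCs in the naive and in the primed state, RUES2-GLR ESCs in the primed state, and early and late RA-gastruloids. H9 is a human ESC line, and its naive cells, which model the pre-implantation epiblast, were chemically reset and grown on mouse embryonic fibroblast feeders that were later removed by passaging. RUES2-GLR is a second human ESC line, which carries fluorescent germ layer reporters, and both gastruloid groups were made from it. Its cells were pre-treated with CHIR, which activates WNT signalling, and then also with retinoic acid (RA), before they were aggregated. Gastruloids were taken at 24 h and 120 h. Matrigel and a further dose of RA were added between these times, so only late RA-gastruloids received them, and the human early-to-late change cannot be told apart from these additions. The mouse groups, all from the E14Tg2a line, were naive ESCs, EpiLCs (epiblast-like cells, the primed state) and gastruloids treated with CHIR but neither RA nor Matrigel, with the early sample taken 72 h and the late sample 144 h after induction. Species, protocol and time therefore cannot be told apart. Each human or mouse stage was 1 cell line or its derivatives, and the study's methods describe the 2 replicates of a stage as biological samples collected in 1 experimental batch, so stage and batch cannot be told apart either.

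Paraxial mesoderm lies on both sides of the neural tube and is first laid down as presomitic mesoderm, in which TBX6 and MSGN1 act and a segmentation clock runs. It then splits into somites, whose front and back parts differ in TBX18 and UNCX. Somites later form sclerotome, the source of vertebrae and ribs, and dermomyotome, the source of skeletal muscle and dermis. FOXC1 and FOXC2 are forkhead factors of early paraxial mesoderm, which are also used in vessels, heart and kidney. MEOX1 and MEOX2 are homeobox factors of formed somites, TCF15 (paraxis) is a basic helix-loop-helix factor that somites need to become epithelial, PAX1 and PAX9 mark sclerotome, and MYF5 is one of the first factors of the muscle lineage.

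On GRCh38, MEOX1 lies on the minus strand of chromosome 17 (43640389 to 43661922, 3 exon blocks), MEOX2 on the minus strand of chromosome 7 (15611212 to 15686683, 3 exon blocks) and UNCX on the plus strand of the same chromosome 7 (1232872 to 1237326, 3 exon blocks). FOXC1 and FOXC2 are genes of 1 exon block, on the plus strand of chromosomes 6 (1609915 to 1613897) and 16 (86566829 to 86569728). RefSeq start regions (GRCh38.p14) were matched for 6 of the 10 human genes, with 7 windows in all, 2 of them for PAX9. The 250 bases before the start are given, 5′ to 3′ on the gene's strand, for UNCX and MEOX2, which were high only in late RA-gastruloids among the human groups, for FOXC1, which was already high in early RA-gastruloids, and for the second PAX9 window, which held the 1 motif match found; capitals mark that match.
UNCX (chr7:1232622-1232871, plus strand): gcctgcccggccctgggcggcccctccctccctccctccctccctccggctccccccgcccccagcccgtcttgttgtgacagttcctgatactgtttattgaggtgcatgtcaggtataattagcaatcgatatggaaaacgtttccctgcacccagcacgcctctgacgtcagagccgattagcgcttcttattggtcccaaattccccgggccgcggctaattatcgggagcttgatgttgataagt
MEOX2 (chr7:15686684-15686933, minus strand): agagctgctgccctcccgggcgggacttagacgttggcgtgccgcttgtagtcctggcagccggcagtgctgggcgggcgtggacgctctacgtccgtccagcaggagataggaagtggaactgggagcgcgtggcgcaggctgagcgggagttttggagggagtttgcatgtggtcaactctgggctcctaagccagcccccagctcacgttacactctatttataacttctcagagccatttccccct
FOXC1 (chr6:1609665-1609914, plus strand): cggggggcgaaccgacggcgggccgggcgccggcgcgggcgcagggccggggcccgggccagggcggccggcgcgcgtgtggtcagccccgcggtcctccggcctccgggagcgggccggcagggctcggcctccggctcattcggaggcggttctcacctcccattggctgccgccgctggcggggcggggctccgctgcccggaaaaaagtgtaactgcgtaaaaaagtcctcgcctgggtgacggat
PAX9, second window (chr14:36661610-36661859, plus strand): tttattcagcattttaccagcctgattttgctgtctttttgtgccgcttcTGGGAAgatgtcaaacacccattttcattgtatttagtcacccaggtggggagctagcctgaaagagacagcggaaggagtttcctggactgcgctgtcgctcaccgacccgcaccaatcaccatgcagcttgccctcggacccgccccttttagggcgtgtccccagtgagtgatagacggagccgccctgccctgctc

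A fixed set of 4 motifs was searched on both strands of these windows: AGGTGTGA, a T-box site, TGGGAA, the core bound by RBPJ of the Notch pathway, AGGTCA, the core site of nuclear receptors such as the retinoic acid receptors, and CAGCTG, an E-box. Among the 7 windows the single match was TGGGAA before PAX9. Over all 35116 windows of the same length, 0.786% held AGGTGTGA, 20.8% TGGGAA, 12.1% AGGTCA and 14.0% CAGCTG. The FOXC1 window was the most CG-rich of the 7, with 37 CG pairs and 76.8% G or C, against 15 pairs for UNCX, 16 for MEOX2 and a median of 11 over all windows.

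Libraries held 3681739 to 38771193 counts in human (median 13561656) and 6487157 to 20052505 in mouse (median 9812648), so that 3 counts in a library, taken as the floor of detection, corresponded to 0.0774 to 0.815 and 0.150 to 0.462 CPM, the count scaled to library size. The smallest human library, with 3681739 counts, was the second primed RUES2-GLR replicate. In the first early RA-gastruloid replicate 34354 genes had a count, and in the second 24085, at 9984573 and 9499295 counts. The reason was not tested, and it bears on early RA-gastruloid values near the floor. Levels of 1 gene across samples are given in CPM after TMM normalisation. Levels of different genes are compared in TPM, which also divides by gene length. Changes were tested with edgeR's quasi-likelihood test over 18300 human and 15003 mouse genes, and a gene was called where its Benjamini-Hochberg adjusted p was under 0.05 and its log2 fold change exceeded 1 in size. The filter on low counts kept 8 of the 10 genes in each species, leaving out PAX1 and MYF5 in human and Uncx and Myf5 in mouse. MEOX1, MEOX2 and UNCX passed it through late RA-gastruloids alone and PAX9 through primed RUES2-GLR ESCs alone, while Meox1, Meox2, Pax1, Pax9, Foxc1 and Foxc2 passed it through late mouse gastruloids alone, so these genes had to differ between stages once kept. Fold changes from groups with few counts are given with an exact 95% counting interval, which covers counting error only.

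In human, 3 of the 10 genes reached 1 TPM in both naive H9 samples, 1 in both primed H9 samples, 1 in both primed RUES2-GLR samples, 3 in both early RA-gastruloid samples and 8 in both late RA-gastruloid samples. In mouse the counts were 2 in naive ESCs, 1 in EpiLCs, 1 in early gastruloids and 8 in late gastruloids. The 8 genes of the late stage were not the same in the 2 species. Human late RA-gastruloids lacked PAX1 and PAX9 at this level, and mouse late gastruloids lacked Uncx and Myf5.

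**Figure D1:**
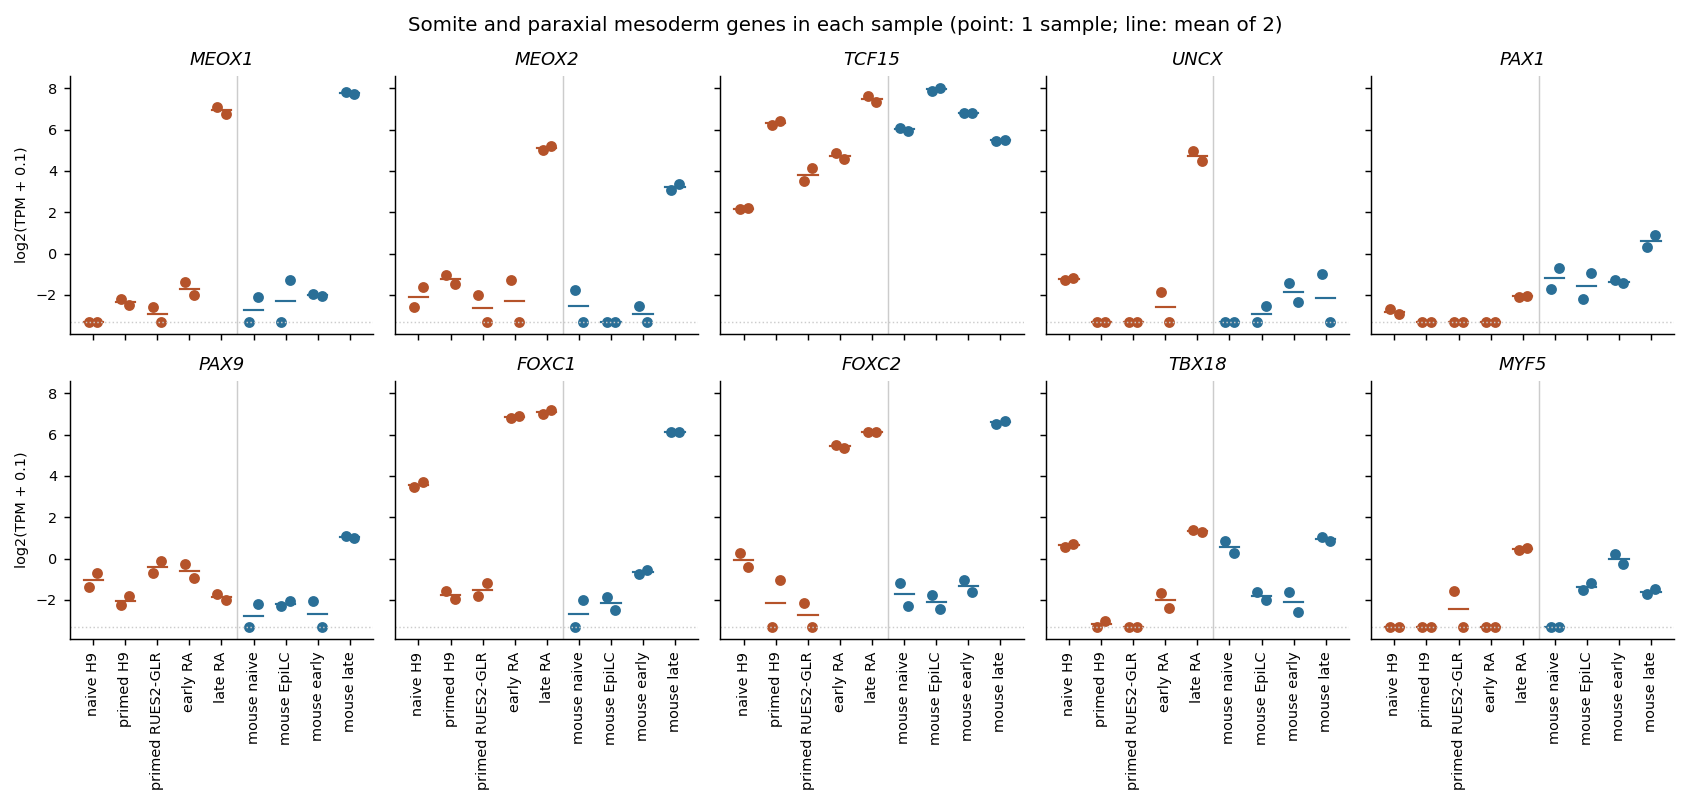
Levels of the 10 genes in each sample, as log2(TPM + 0.1) on the vertical axis, with the human groups in orange and the mouse groups in blue along the horizontal axis. Points are single samples, horizontal bars are the mean of the 2 log2 values, and the dotted line is a level of 0. MEOX1 and MEOX2 stood high in the late groups of both species, UNCX in the human late group alone, and FOXC1 and FOXC2 in human early and late but mouse late samples.

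MEOX1 was close to absent until the late stage and was then one of the most highly expressed genes of the set, in both species. In human, MEOX1 had 0 counts in both naive H9 samples, 1 and 2 counts in primed H9, 1 and 0 in primed RUES2-GLR and 2 and 1 in early RA-gastruloids, and 1912 and 706 counts in late RA-gastruloids. In mouse, Meox1 had at most 3 counts in each of the 6 earlier samples and 1199 and 908 in late gastruloids. The late samples thus stood apart from all others without overlap.

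In late RA-gastruloids MEOX1 reached 92.7 and 72.0 CPM (82.3 ± 14.7), against 0.147 ± 0.0645 in early RA-gastruloids, a ratio of 582 (counting interval 199 to 2826) and a fitted log2 fold change of 9.06 ± 0.30 (SE; edgeR adjusted p = 6.71e-21). Late mouse gastruloids held Meox1 at 140 and 135 CPM (138 ± 3.36), against 0.0934 ± 0.00765 in early ones, a ratio of 1453 (497 to 7053) and a log2 fold change of 10.34 ± 0.20 (adjusted p = 6.48e-46). The change was large in both species and no difference between them was called by the test of the difference (human minus mouse −1.17 ± 1.13 on the log2 scale, adjusted p = 0.403). In bulk RNA, fewer expressing cells and less RNA per cell cannot be told apart, here and for every gene below.

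MEOX2, the paralogue, followed MEOX1 at a lower level. It had at most 6 counts in each of the 8 earlier human samples and 404 and 209 in late RA-gastruloids, where it stood at 19.6 and 21.3 CPM. From early to late RA-gastruloids its log2 fold change was 7.58 ± 0.42 (edgeR adjusted p = 6.30e-16), with a ratio of 205 (56.4 to 1693) against the 2 counts of the early group. Mouse Meox2 rose from 1 and 0 counts to 46 and 46, or 5.37 and 6.85 CPM, a log2 fold change of 7.14 ± 0.64 (adjusted p = 4.87e-15).

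The balance of the pair differed between the late groups. Per length, MEOX1 made up 80.8% and 75.0% of MEOX1 plus MEOX2 in the 2 late RA-gastruloid samples, and Meox1 96.5% and 95.4% in the 2 late mouse samples. The 2 pairs of values did not overlap, and the difference in share was not tested. MEOX2 stood at 34.6 ± 2.81 TPM in late RA-gastruloids beside MEOX1 at 123 ± 19.3 TPM. Meox2 in late mouse gastruloids stood at 9.29 ± 1.44 TPM beside Meox1 at 222 ± 9.13 TPM.

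UNCX, a homeobox factor of the back part of each somite, was high in the human late stage and near the floor in the mouse one. It had 336 and 111 counts in late RA-gastruloids (16.3 and 11.3 CPM), 1 and 0 in early RA-gastruloids, 0 in all 4 primed samples and 4 in each naive H9 sample. The late human samples lay above all other human samples. Its log2 fold change from early to late was 7.95 ± 0.52 (edgeR adjusted p = 1.31e-13), with a ratio of 298 to the 1 early count (53.3 to 11810), and late RA-gastruloids were at least 75.1-fold higher than primed RUES2-GLR ESCs, where the floor of 3 counts over the group stood in for 0.

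Mouse Uncx stayed near the floor in every sample. Its counts were 0 and 0 in naive ESCs, 0 and 1 in EpiLCs, 5 and 1 in early gastruloids and 3 and 0 in late gastruloids, and it did not pass the filter. In the joint fit of both species the early-to-late change of UNCX was larger in human by 8.02 ± 1.57 on the log2 scale (edgeR adjusted p = 5.03e-05), and without the first early mouse replicate, which holds 5 of the 6 early counts, the difference was 6.96 and the adjusted p 0.0530.

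TBX18, a T-box factor of the front part of each somite that also acts in the epicardium and the ureter, did not exceed 2.54 TPM in any sample. In human it had 73 and 77 counts in naive H9, 0 and 2 in primed H9, 0 and 0 in primed RUES2-GLR, 5 and 2 in the early gastruloids and 115 and 49 in the late gastruloids. Both naive H9 and late RA-gastruloids lay above the 3 groups between them. Late RA-gastruloids held it at 5.58 and 4.99 CPM, and the change from early to late was 3.92 ± 0.43 (edgeR adjusted p = 4.67e-09).

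The rise of TBX18 between primed RUES2-GLR ESCs and the early stage rested on 7 counts against none, so that early RA-gastruloids were at least 1.76-fold higher. This small step was called (adjusted p = 0.0213 in edgeR), but not by DESeq2 (adjusted p = 0.0703), nor in edgeR without the first early replicate (0.115) or without the first RUES2-GLR replicate (0.308). In mouse, Tbx18 had 17 and 18 counts in naive ESCs, 2 and 3 in EpiLCs, 6 and 1 in early and 22 and 15 in late gastruloids. It fell from naive ESCs to EpiLCs by 3.02 ± 0.63 on the log2 scale (adjusted p = 3.36e-05) and rose from early to late by 3.39 ± 0.56 (adjusted p = 3.45e-07), ending at a level that was not distinguished from that of naive ESCs (0.32 ± 0.42, adjusted p = 0.478). The exons of Tbx18 overlap those of D030062O11Rik on the opposite strand over 970 bases, 20.6% of its length. D030062O11Rik held 6 counts over all mouse samples. The study's methods give default counting parameters and name no setting that separates the strands.

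In late RA-gastruloids UNCX exceeded TBX18 per length, 26.4 ± 6.17 against 2.45 ± 0.137 TPM. In late mouse gastruloids the order was the opposite, with Tbx18 at 1.83 ± 0.211 TPM and Uncx at 0.406 and 0 TPM. The ranges of the 2 genes did not overlap in either species.

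TCF15 differed from the other members in that it was well above the floor in every sample of both species. In human its levels were 1.41 and 1.49 CPM in naive H9, 17.2 and 19.8 in primed H9, 5.24 and 8.28 in primed RUES2-GLR, 7.49 and 6.06 in early RA-gastruloids and 51.1 and 39.6 in late RA-gastruloids. The late samples were the highest and the naive ones the lowest, and primed RUES2-GLR and early RA-gastruloids overlapped.

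TCF15 rose from naive to primed H9 ESCs by 3.68 ± 0.21 on the log2 scale (edgeR adjusted p = 4.84e-16) and from early to late RA-gastruloids by 2.75 ± 0.18 (adjusted p = 2.76e-14). Between these rises no change was called: from the primed RUES2-GLR cells to the early stage it was 0.17 ± 0.24 (adjusted p = 0.577), with its sign turned to −0.37 without the first RUES2-GLR replicate. The 2 primed lines differed, with TCF15 lower in RUES2-GLR than in H9 by 1.63 ± 0.21 (adjusted p = 5.39e-08). In that comparison the median gene moved by −0.12 under TMM and by 0.02 under upper quartile normalisation.

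Mouse Tcf15 ran the other way in the gastruloids. It stood at 19.8 and 18.8 CPM in naive ESCs, 66.5 and 72.7 in EpiLCs, 31.6 in both early gastruloid samples and 11.8 and 12.5 in late gastruloids. EpiLCs were the highest and late gastruloids the lowest, with no overlap between any 2 groups. It rose from naive ESCs to EpiLCs by 1.87 ± 0.10 (edgeR adjusted p = 1.35e-24), as TCF15 did between the human naive and primed states, and fell from early to late gastruloids by 1.38 ± 0.12 (adjusted p = 1.12e-15). The early-to-late changes of the 2 species differed by 4.28 ± 0.22 (human minus mouse, adjusted p = 1.15e-18).

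FOXC1 and FOXC2 were already high in early RA-gastruloids. FOXC1 had 4 and 2 counts in primed RUES2-GLR ESCs, 1182 and 1193 in early RA-gastruloids and 2690 and 1408 in late RA-gastruloids, or 0.328 and 0.637, 114 and 120, and 130 and 144 CPM. Its rise from primed RUES2-GLR ESCs to the early stage was 8.19 ± 0.26 on the log2 scale (edgeR adjusted p = 4.99e-22), and that from early to late, 0.23 ± 0.11, was not called (adjusted p = 0.0976). The FOXC1 mean of the 24 h samples was thus 85.4% of its late mean, and these samples had also had the pre-treatment with CHIR and RA before aggregation.

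FOXC2 took the same course at a lower level. Its counts were 2 and 0 in primed RUES2-GLR ESCs, 354 and 299 in early RA-gastruloids and 1059 and 486 in late RA-gastruloids, and its levels in the gastruloids 34.0 and 30.2 CPM early and 51.3 and 49.5 CPM late. It rose to the early stage by 7.86 ± 0.41 (edgeR adjusted p = 1.46e-16). The further change to the late stage passed the adjusted p but not the fold threshold (0.65 ± 0.15, adjusted p = 5.06e-04), and the early mean was 63.6% of the late one. Genes of other mesoderm moved with this early rise: 4 of 6 tested lateral plate and cardiac genes were called higher and none lower (sum from 0.537 and 0.877 to 48.9 and 41.3 TPM), 4 of 7 intermediate mesoderm genes higher and 1 lower (30.9 and 28.0 to 285 and 303 TPM), and 3 of 8 fibroblast genes higher and 1 lower (158 and 170 to 602 and 573 TPM). Of 7 endothelial genes 1 was higher and 4 were lower. The presomitic list moved as well, with 15 of 18 genes higher and 1 lower (290 and 324 to 4568 and 4705 TPM). Of all tested genes, 12.0% were higher and 17.6% lower at this step. The part of any of these lists in the FOXC1 and FOXC2 levels was not tested.

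In mouse both genes waited for the late stage. Foxc1 had 0 and 3 counts in naive ESCs, 2 and 2 in EpiLCs, 17 and 11 in early gastruloids and 967 and 766 in late gastruloids, where it reached 113 and 114 CPM. A small early rise was called from naive ESCs (2.36 ± 0.69, edgeR adjusted p = 0.00250) and from EpiLCs (2.21 ± 0.63, adjusted p = 0.00195), the latter not without the second EpiLC replicate (adjusted p = 0.134). The rise from early to late was 6.98 ± 0.15 (adjusted p = 2.51e-43), and the early mean was 0.796% of the late mean.

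Foxc2 had 6 and 2 counts in early and 595 and 525 in late mouse gastruloids, a log2 fold change of 8.12 ± 0.21 (edgeR adjusted p = 6.95e-40), and its early mean was 0.320% of the late mean. The timing differed between the species by the test of the difference: from early to late, human minus mouse was −6.60 ± 0.23 on the log2 scale for FOXC1 (adjusted p = 1.88e-23) and −7.33 ± 0.33 for FOXC2 (adjusted p = 3.59e-20). From the starting ESCs to the early stage the order was the opposite, with human minus mouse at 5.68 ± 1.41 for FOXC1 (adjusted p = 8.20e-04) and 7.12 ± 1.68 for FOXC2 (adjusted p = 4.57e-04), the former at 1.51 with an adjusted p of 0.898 without the second mouse naive replicate, which holds all 3 naive counts. Over the whole course no difference was called, at −0.93 ± 0.94 for FOXC1 (adjusted p = 0.400) and −0.21 ± 1.44 for FOXC2 (adjusted p = 0.929).

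Per length, FOXC1 exceeded FOXC2 in early and late RA-gastruloids, and Foxc2 exceeded Foxc1 in late mouse gastruloids. FOXC1 made up 64.9% and 67.8% of the pair in late RA-gastruloids and 70.9% and 74.4% in early ones, and Foxc1 43.1% and 40.5% in late mouse gastruloids. The ranges of these 3 groups did not overlap. In early mouse gastruloids, on 28 counts of Foxc1 and 8 of Foxc2, Foxc1 made up 56.9% and 71.9%, a range that overlapped both human ones, and the difference in share was not tested. FOXC2 overlaps FOXC2-AS1 on the opposite strand over 231 bases, 7.97% of its length, and that gene held 3 counts over all human samples.

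PAX1 and PAX9, the paired-box factors of sclerotome, were scarcely seen in human. PAX1 had 2 and 1 counts in naive H9, 4 and 2 in late RA-gastruloids and 0 in the 6 samples between. PAX9 had 10 and 17 counts in naive H9, 2 and 10 in primed H9, 16 and 7 in primed RUES2-GLR cells, 11 and 6 in the early gastruloids and 6 and 2 in the late ones, and stood below 1 TPM in every human sample. Its fall from early to late, by 1.65 ± 0.67 on the log2 scale, was called in edgeR (adjusted p = 0.0405) on these few counts but not by DESeq2 (0.173), without the filter (0.0649), or without the first early (0.334), the first late (0.130) or the second late replicate (0.121). Of the PAX9 gene model 1442 bases, or 25.4%, overlap SLC25A21 on the opposite strand. SLC25A21 held 886 counts over all human samples.

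In mouse both genes rose in the late stage while staying low. Pax9 went from 4 and 0 counts in early to 24 and 18 in late gastruloids, 2.80 and 2.68 CPM, a log2 fold change of 4.33 ± 0.63 (edgeR adjusted p = 1.56e-08). Pax1 went from 8 and 4 to 12 and 15 counts, 1.40 and 2.23 CPM in the late samples against 0.395 and 0.352 in the early ones, a change of 2.19 ± 0.56 (adjusted p = 4.27e-04). Late samples lay above early ones for both genes, and neither exceeded 2.01 TPM. The early-to-late change of PAX9 differed as well, with human minus mouse at −5.85 ± 0.98 (adjusted p = 3.77e-06), and for PAX1 no difference was called (2.49 ± 2.25, adjusted p = 0.351).

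MYF5 passed the filter in neither species. Human MYF5 had 10 and 5 counts in late RA-gastruloids, none in early RA-gastruloids or either H9 state, and 2 and 0 in primed RUES2-GLR ESCs, so that late RA-gastruloids were at least 3.34-fold higher than early ones. Mouse Myf5 was seen earlier and less later, with 13 and 5 counts in early and 1 and 1 in late gastruloids, a ratio of early to late of 4.35 (counting interval 1.04 to 38.7). At 1.30 ± 0.0741 TPM in late RA-gastruloids and 0.904 ± 0.249 TPM in early mouse gastruloids its level was low in both. In edgeR without the filter, the human rise from early to late was called (adjusted p = 0.0225), as was the mouse rise from naive ESCs to early gastruloids (0.00665), while the mouse fall from early to late was not (0.148). DESeq2 gave no adjusted p for the first 2 and did not call the last (0.400).

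Summed over the 10 genes, the level per length was 604 and 549 TPM in late RA-gastruloids and 449 and 448 TPM in late mouse gastruloids. TCF15 made up 90.1% to 98.9% of the sum in the 4 primed human samples and at least 96.5% in the 6 mouse samples before the late stage, but 23.7% and 21.5% in naive H9 and 15.5% and 12.9% in early RA-gastruloids, where FOXC1 was the largest part. Without TCF15 the sum was 14.0 and 16.4 TPM in naive H9, at most 1.26 TPM in the 4 primed human samples, 158 and 159 TPM in early RA-gastruloids and 404 and 389 TPM in late RA-gastruloids. In mouse the sum without Tcf15 was between 1.06 and 3.13 TPM in the 6 samples before the late stage and 405 and 402 TPM in late gastruloids. The late levels of the 2 species without TCF15 thus overlapped, while the early levels did not.

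**Figure D2:**
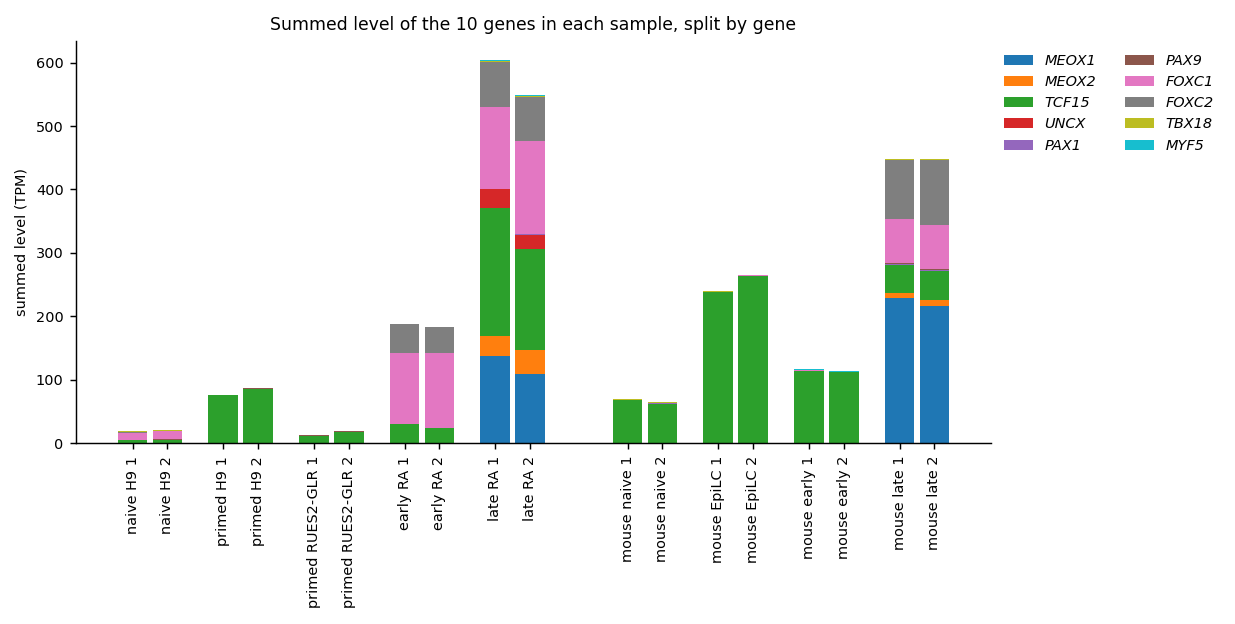
Summed level of the 10 genes in each sample (vertical axis, TPM from 0), split by gene in colour, with samples of the human groups to the left and of the mouse groups to the right (horizontal axis, replicates 1 and 2). FOXC1 and FOXC2 made up most of the early RA-gastruloid bars, TCF15 nearly all of the early mouse bars, and Meox1 50.9% and 48.1% of the late mouse bars.

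The order of the members also differed between the late groups. In late RA-gastruloids TCF15 was the highest at 201 and 161 TPM, then FOXC1 (129 and 147), MEOX1 (137 and 110), FOXC2 (69.9 and 69.6), MEOX2 (32.6 and 36.6), UNCX (30.8 and 22.0), TBX18 (2.54 and 2.35), MYF5, PAX9 and PAX1. Of these neighbours only FOXC1 and MEOX1 overlapped. In late mouse gastruloids Meox1 led with 228 and 215 TPM, then Foxc2 (92.6 and 102), Foxc1 (70.2 and 69.3), Tcf15 (43.7 and 45.3) and Meox2 (8.27 and 10.3), followed by Pax9, Tbx18 and Pax1, whose neighbouring ranges overlapped, and by Myf5 and Uncx, which overlapped as well. TCF15 made up 33.2% and 29.2% of the sum in late RA-gastruloids, and Tcf15 9.74% and 10.1% in late mouse gastruloids.

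Read as counts, from early to late RA-gastruloids 5 of the 8 tested members were called higher and 1 lower, where 24.9% of all tested genes were called, 11.8% higher and 13.2% lower. The 5 were MEOX1, MEOX2, UNCX, TBX18 and TCF15. Of them MEOX1, MEOX2 and UNCX passed the filter through late RA-gastruloids alone, so their higher late level was fixed once they were kept. From early to late mouse gastruloids 7 were called higher and Tcf15 lower, where 39.2% of tested genes were called, 20.1% higher and 19.1% lower. The members of this second count are those that passed the filter in mouse, most of them through the late group alone.

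In early RA-gastruloids against their primed RUES2-GLR ESCs, FOXC1, FOXC2 and TBX18 were called higher and no member lower, where 29.6% of tested genes were called, 12.0% higher and 17.6% lower. In edgeR, 0 members were lower at an unadjusted p under 0.05, and DESeq2 called 0 lower. Over the whole human course, from primed RUES2-GLR ESCs to late RA-gastruloids, 7 were higher and PAX9 was lower, where 38.3% of tested genes were called, 17.3% higher and 21.0% lower. Of these, MEOX1, MEOX2 and UNCX passed the filter through late RA-gastruloids alone and PAX9 through primed RUES2-GLR ESCs alone, so the filter favoured these directions. The mouse course from naive ESCs to late gastruloids had 6 higher and none lower, where 44.8% of tested genes were called, 25.6% higher and 19.2% lower. All 6 passed the filter through late gastruloids alone, so a higher late level was fixed once they were kept, and the count is no separate result. The 6 were Meox1, Meox2, Pax1, Pax9, Foxc1 and Foxc2, and Pax1 was not called by DESeq2 (adjusted p = 0.103), nor by edgeR without the first naive (0.0909) or the second late replicate (0.119). Tcf15 fell over that course by 0.67 ± 0.14 on the log2 scale (edgeR adjusted p = 2.04e-05), below the fold threshold.

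At each mouse step before the late stage 2 of the 8 tested members were called, a share near that of all tested genes. From naive ESCs to EpiLCs Tcf15 was higher and Tbx18 lower, 1 gene each where 29.8% of tested genes were called, 17.7% higher and 12.1% lower. From naive ESCs to early gastruloids Foxc1 was higher and Tbx18 lower, where 23.0% were called, 16.2% higher and 6.81% lower. From EpiLCs to early gastruloids Foxc1 was higher and Tcf15 lower (−1.15 ± 0.08, edgeR adjusted p = 2.26e-18), where 20.9% were called, 11.7% higher and 9.24% lower.

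**Figure D3:**
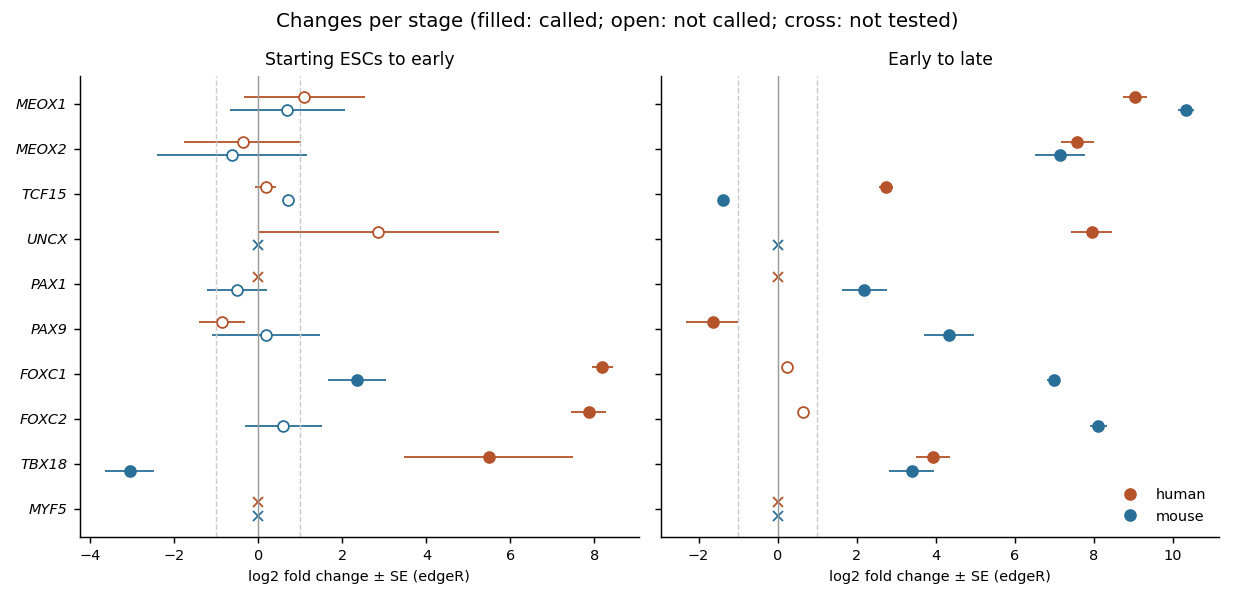
Fitted log2 fold changes with their SE (horizontal axis) of the 10 genes (vertical axis) from the starting ESCs to the early stage on the left and from early to late on the right, in human (orange) and mouse (blue). Filled points were called, open points were not, and a cross at 0 marks a gene that did not pass the filter on low counts. FOXC1 and FOXC2 moved on the left in human and on the right in mouse, and TCF15 moved in opposite directions on the right.

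The naive and primed states of H9 differed in more members than those of mouse. From naive to primed H9 ESCs TCF15 was called higher and 5 members lower, where 47.8% of tested genes were called, 25.5% higher and 22.3% lower. FOXC1 fell from 13.8 and 17.2 CPM to 0.210 and 0.143 CPM, a log2 fold change of −6.52 ± 0.26 (edgeR adjusted p = 4.58e-20). TBX18 fell from 3.81 and 4.42 CPM to 2 counts in all, a ratio of 115 (counting interval 31.4 to 962). FOXC2 (−2.09 ± 0.50, adjusted p = 4.59e-04) and PAX9 (−1.77 ± 0.56, adjusted p = 0.00531) fell from at most 1.05 CPM, and UNCX was at least 4.10-fold higher in naive cells on 8 counts. DESeq2 did not call PAX9 (adjusted p = 0.0670), nor did edgeR without the second naive replicate (0.132).

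Genes of lateral plate and cardiac mesoderm and of fibroblasts moved with FOXC1 and TBX18 between the H9 states, while the sums of 2 other mesoderm lists rose. Of the 8 fibroblast genes 4 were called lower in primed cells and 1 higher, and the list's summed level was 267 and 255 TPM in naive and 161 and 166 TPM in primed H9, with DCN and LUM at 0 in primed cells. Of the 9 lateral plate and cardiac genes 6 were tested and 5 were lower in primed cells, and their sum was 111 and 150 TPM in naive and 0.742 and 0.979 TPM in primed H9. Of 7 intermediate mesoderm genes 4 were lower and 1 was higher, but their sum rose from 4.31 and 3.38 to 54.9 and 52.6 TPM. Of 7 endothelial genes 4 were lower and 2 higher, and their sum rose from 27.8 and 25.6 to 113 and 113 TPM. Among genes chosen after their values were seen, COL3A1, a fibrillar collagen, stood at 83.1 and 77.2 TPM in naive and 0.0454 and 0.0306 TPM in primed cells, and HAND1, a factor of lateral plate mesoderm and trophoblast, at 60.6 and 88.2 TPM and 0.180 and 0 TPM. Their part in the FOXC1 and TBX18 levels of naive H9 was not tested.

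The 2 primed human lines differed in 2 members. From primed H9 to primed RUES2-GLR ESCs PAX9 was higher (2.82 ± 0.59, edgeR adjusted p = 1.25e-04), on 12 counts against 23, and TCF15 was lower, as given above, where 29.3% of tested genes were called, 17.1% higher and 12.2% lower. FOXC1, FOXC2, TBX18, UNCX and MEOX1 had at most 11 counts in any primed sample of either line.

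In the joint fit of both species, over 14008 genes matched by symbol, 9 members were tested. The early-to-late change differed for 5 of the 9, FOXC1, FOXC2, PAX9, TCF15 and UNCX, where 35.4% of matched genes differed. Within each species, UNCX was kept through late RA-gastruloids alone, and Foxc1, Foxc2 and Pax9 through late mouse gastruloids alone. The filter thus favoured a late rise in that species, and the count is no separate result. From the starting ESCs to the early stage FOXC1, FOXC2 and TBX18 differed, where 34.1% of genes did, and from the starting ESCs to the late stage TBX18, PAX9 and TCF15, where 45.8% did. For TBX18 both differences, 8.34 ± 1.88 (edgeR adjusted p = 2.77e-04) and 9.01 ± 1.29 (adjusted p = 1.72e-07), were fitted against primed RUES2-GLR ESCs with 0 counts, so their sizes depend on the fit's prior count. MEOX1 (adjusted p = 0.403), MEOX2 (0.927), TBX18 (0.553) and PAX1 (0.351) were not called to differ from early to late.

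The presomitic genes that precede somites were high in early RA-gastruloids. Of the 18 genes of presomitic mesoderm and segmentation, all tested in human, 15 were called higher and 1 lower on the way from RUES2-GLR ESCs to the early stage, and from early to late 2 were higher and 14 lower. Over all tested genes, 12.0% were higher and 17.6% lower at the former step, and 11.8% and 13.2% at the latter. The summed level of the 18 genes was 4568 and 4705 TPM at the early and 545 and 424 TPM at the late stage. MSGN1, a bHLH factor of presomitic mesoderm, fell from 787 and 822 TPM to 1.57 and 1.55 TPM (log2 fold change −9.02 ± 0.20, edgeR adjusted p = 1.76e-24). TBX6, the T-box factor that sets paraxial against neural fate, fell from 448 and 484 TPM to 2.16 and 0.803 TPM (−8.12 ± 0.19, adjusted p = 3.12e-25).

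The 2 genes that rose were RIPPLY1, which ends TBX6 activity as a somite forms, from 0 to 34.1 and 30.9 TPM (10.28 ± 0.74, edgeR adjusted p = 1.61e-12), and CYP26A1, which breaks down retinoic acid (1.49 ± 0.18, adjusted p = 2.41e-08). Of the 18 genes of somite derivatives 16 were tested in human, and 11 were higher and none lower from early to late. MYF6, a muscle determination factor, rose from 0.563 and 0 to 50.9 and 58.4 TPM (7.40 ± 0.44, adjusted p = 6.93e-15), and MYOG, which acts in muscle differentiation, from 0 counts to 42 and 11 (7.75 ± 1.33, adjusted p = 1.47e-05). PAX3, a factor of dermomyotome and neural tube that was chosen after its values were seen, rose from 8.90 and 10.7 to 129 and 128 TPM. The median log2 fold change from early to late was −4.09 for the presomitic genes and 2.97 for the somite derivatives, beside 0 over all genes tested.

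In mouse, 11 of the 18 presomitic genes reached 1 TPM in both early and 12 in both late gastruloid samples, but 3 others, chosen after their values were seen, stayed near the floor. Msgn1 had 0 counts in all 4 gastruloid samples, Tbx6 8 and 4 counts in early and 5 and 1 in late gastruloids, and Hes7, an oscillating gene of the segmentation clock, 1 and 0 in early and 2 and 0 in late gastruloids. Of the 18 genes 12 were tested, and 3 were higher and 5 lower from early to late. Over all tested mouse genes, 20.1% were higher and 19.1% lower. The summed level of the 18 genes was 475 and 459 TPM early and 183 and 175 TPM late. T (brachyury), the T-box factor of the primitive streak and tailbud, made up most of the early sum and fell from 323 and 317 to 18.9 and 21.0 TPM (−4.06 ± 0.10, edgeR adjusted p = 4.22e-41), and Nkx1-2, a factor of caudal progenitors, fell by 3.46 ± 0.21 (adjusted p = 8.52e-22). Cyp26a1 rose by 7.16 ± 0.29 (adjusted p = 1.84e-29) and Rspo3, a WNT agonist, by 2.27 ± 0.23 (adjusted p = 2.70e-13).

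Of the 18 genes of somite derivatives, 14 were tested in mouse, and 12 were higher and 2 lower from early to late, with a median log2 fold change of 4.20, beside −0.03 over all genes tested and −0.73 for the presomitic genes. Nkx3-2, a sclerotome factor, rose from 0 counts to 18 and 15 (7.57 ± 1.04, edgeR adjusted p = 4.46e-09), and Lbx1, a factor of migrating muscle precursors and of spinal cord neurons, from 1 and 0 to 44 and 28 counts (6.77 ± 0.67, adjusted p = 1.75e-13). Fst, which encodes follistatin, and Six4, a homeobox factor, fell by 3.04 ± 0.12 (adjusted p = 3.00e-31) and 1.05 ± 0.08 (adjusted p = 5.04e-18). The dermomyotome gene Pax3, chosen after its values were seen, stood at 1.71 and 1.88 TPM in late mouse gastruloids, far below PAX3 in late RA-gastruloids on the same scale. Most of the mouse list's summed level, 938 and 928 TPM, was Twist1 at 537 and 557 TPM and Aldh1a2 at 244 and 217 TPM. Both genes were chosen after their values were seen. They are expressed in lateral plate mesoderm as well as in somites, and the part of each tissue was not tested.

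**Figure D4:**
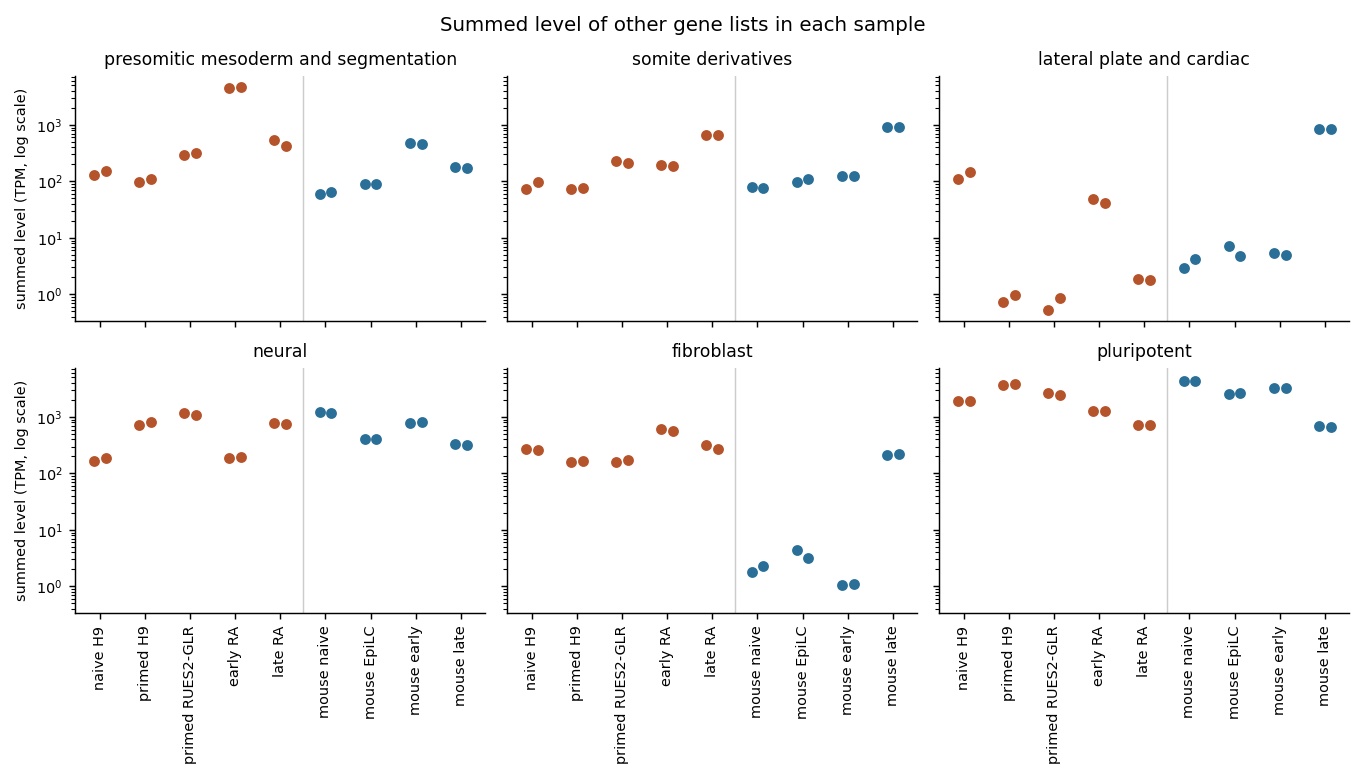
Summed level (vertical axis, TPM on a log scale) of 6 gene lists in each sample of the human (orange) and mouse (blue) groups along the horizontal axis. The presomitic list was highest in early RA-gastruloids, and the lateral plate and cardiac list was near 1 TPM in the 4 primed human samples, near 2 TPM in late RA-gastruloids and 860 and 855 TPM in late mouse gastruloids.

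Lateral plate and cardiac genes moved in opposite directions in the 2 species. From early to late mouse gastruloids all 9 lateral plate and cardiac genes were called higher, and their sum rose from 5.45 and 5.07 to 860 and 855 TPM, with Hand2 at 149 and 161 TPM and Foxf1 at 123 and 119 TPM. All 7 fibroblast genes found in the table were higher too, from a sum of 1.06 and 1.11 to 210 and 223 TPM. Of 7 endothelial genes 5 were higher and 1 was lower, and of 7 intermediate mesoderm genes 5 were higher and 1 was lower, where 20.1% of all tested mouse genes were higher. In human, 6 of the 9 lateral plate and cardiac genes were tested and all 6 fell from early to late, from a sum of 48.9 and 41.3 to 1.84 and 1.82 TPM, with HAND1, ISL1, TBX20 and TNNT2 at 0 counts in late RA-gastruloids. The human endothelial genes, like those of mouse, had 5 of 7 higher and 1 lower. Of 8 human fibroblast genes 4 were higher and 2 lower, and of 7 intermediate mesoderm genes 2 were higher and 4 lower, where 11.8% of all tested human genes were higher. The mouse Foxc1, Foxc2 and Meox2 genes act in several of these tissues, and what part of their late level came from them was not tested. Of 8 human neural genes 6 were higher in late RA-gastruloids and 2 lower, OLIG2 (−6.12 ± 1.48) and NKX6-1 (−5.11 ± 0.60), with a late sum of 793 and 758 TPM. In mouse 4 of 6 tested neural genes were higher and 1 was lower, while the list's sum fell to 326 and 314 TPM.

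Genes with the profile most like that of MEOX1 over the 10 human samples, by Pearson r of log2 CPM, were SLC10A2 (r = 0.995), FAM181A (0.993), LINC01798 (0.991), CLDN2 (0.991) and SLC5A7 (0.990). For Meox1 over the 8 mouse samples they were Tnks (0.999), Grem1 (0.999), Hapln1, Fli1 and Pcdhb20 (each 0.998). No gene was shared by the 2 lists. For TCF15 they were RTL6 (0.993), CASZ1 (0.989), RFX5-AS1 (0.986), SPATA13 (0.983) and REPIN1 (0.981) in human, and for Tcf15 they were Supt20 (0.994), Rarg (0.994), Herc6 (0.992), Enc1 (0.992) and Iho1 (0.991) in mouse. A gene that is low everywhere but in 1 group gives such a high r with many others, and these values are a description over samples that share their groups.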

How the data were processed

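RNA was measured in 10 human and 8 mouse samples, 2 per group. Per the labels and methods, polyadenylated RNA was sequenced as paired reads. The submitters' processing notes name Trimmomatic 0.39, STAR and featureCounts, and the builds GRCh38 and GRCm39. The annotation release is not given in the sources used here. The study's methods state that featureCounts was run with its default parameters and name no strand setting. The values deposited by the authors were raw counts per gene. Symbols came from GENCODE, matching 44876 human and 29486 mouse gene IDs. The 10 genes and the gene lists were chosen with earlier results of these data known.

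Counts were fitted in edgeR 4.0.16 (R 4.3.3; quasi-likelihood test, TMM, filterByExpr, 1 coefficient per group, 1 fit per species, and a joint fit over genes matched by symbol). Calls needed both an adjusted p (Benjamini-Hochberg, over all genes tested) under 0.05 and a log2 fold change larger than 1 in size. All 10 genes were named. Of the lists, the 2 largest called rises and falls from early to late per list and species could be named. Any other list gene is marked in the text as chosen after its values were seen, except genes named only for having no count in a group. Alternatives were DESeq2 1.42.0, other normalisations, filters, sample sets and thresholds, a replicate block and leaving out each library. The fit was tested on simulated data. Fold bounds used a floor of 3 counts over a group.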

Additional observations from a re-analysis of the deposited data

Results flagged for a closer look

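The change of 5 genes from early to late differed between human and mouse in the joint edgeR fit, as human minus mouse on the log2 scale: FOXC1 by −6.60, FOXC2 by −7.33, PAX9 by −5.85, TCF15 by 4.28 and UNCX by 8.02. From the starting ESCs to the early stage the difference was 5.68 for FOXC1, 7.12 for FOXC2, 8.34 for TBX18 and −0.68 for TCF15, the last past the adjusted p (0.0290) but not the fold threshold. From the starting ESCs to the late stage it was 9.01 for TBX18, −7.04 for PAX9 and 3.61 for TCF15. Of all matched genes, 35.4% differed from early to late, 34.1% from the starting ESCs to the early stage and 45.8% to the late stage. As given above, the early FOXC1 difference and the UNCX difference depended on a single mouse replicate each. Both TBX18 differences were fitted against primed RUES2-GLR ESCs without a count. Species, protocol, time and starting state cannot be told apart in these differences.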

How the results depend on the processing

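The number of called genes moved by more than 1.5 times in 2 settings. From mouse naive ESCs to early gastruloids it was 1 in place of 2 when only the 2 groups compared were fitted, where 2 of the 10 genes passed the filter. From EpiLCs to early gastruloids it was 1 without the second EpiLC replicate, and leaving out each library in turn gave 1 to 2. The change of TCF15 from RUES2-GLR ESCs to the early stage was −0.37 to 0.33 when each library was left out, reversed without the first RUES2-GLR replicate. Of the other log2 fold changes, 15 lost and 3 gained a call over all settings, and the cause was not tested. Replicate numbers did not pair the samples, since the correlation of same-numbered deviations was −0.0892 to 0.0684, and with the replicate block the early to late RA-gastruloid count was 5 in place of 6, PAX9 being the gene lost. Depth limits PAX1, PAX9, MYF5, TBX18 and mouse Uncx, whose calls or levels rest on few counts.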

Other observations

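Pluripotency genes fell in both species from early to late, 4 of 6 in human, where SOX2 rose, and 4 of 5 in mouse. Of 7 neural crest genes, 2 rose and 3 fell in human, and of the 5 tested in mouse 1 rose and 2 fell. Of the endoderm and pharyngeal genes all 5 tested fell in human, while 3 of 6 rose and 2 fell in mouse. Over all tested genes, 11.8% rose and 13.2% fell in human, and 20.1% rose and 19.1% fell in mouse. The neural crest counts in mouse were close to these shares for rises.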
